A study of Mus musculus with 6 samples.

Results

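The genes described here are *Nfe2l2*, which encodes the transcription factor Nrf2, its inhibitor *Keap1*, heme oxygenase *Hmox1* and 7 antioxidant genes that Nrf2 is known to control, *Nqo1*, *Gclm*, *Gclc*, *Srxn1*, *Txnrd1*, *Prdx1* and *Osgin1*. They were taken by name from the array's annotation, each through its brightest probe set that names no other gene. All 10 were found among the 19938 genes that have such a probe set. Bone marrow-derived macrophages (BMMs) were grown with M-CSF from the marrow of 9-week-old mice and then treated with RANKL (50 ng/ml), the cytokine that turns them into osteoclasts, during 24 h in which M-CSF stayed at 100 ng/ml. The vehicle control (RANKL) and the group given 100 ng/ml rGDF11 as well, a TGF-β family ligand, had 3 arrays each. RANKL was in both groups, so untreated macrophages were not compared. The titles call the samples biological replicates without saying whether the marrow of different mice was used, and p-values cover no more than the spread among these arrays.

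In resting cells the adaptor protein Keap1 holds Nrf2 and hands it to a ubiquitin ligase for destruction. Oxidants and electrophiles modify Keap1, and the Nrf2 that escapes pairs with small Maf proteins at antioxidant response elements and raises genes that make glutathione, reduce quinones and repair oxidised proteins. Much of this control acts on the Nrf2 protein, which arrays do not measure. In macrophages given RANKL, reactive oxygen is known as a signal towards osteoclast formation, and Nrf2 and heme oxygenase are known to restrain it.

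Promoter windows of 300 bases, from 250 before to 50 after an annotated start (RefSeq, GRCm38.p6), were matched for 8 of the 10 genes, all but *Hmox1* and *Gclc*. The core of the antioxidant response element, TGACNNNGC on either strand, lay in a window of 5 of these 8 genes (62.5%), *Nfe2l2*, *Srxn1*, *Gclm*, *Prdx1* and *Txnrd1*, and in 14% of the 27025 genes with a window. The AP-1 motif TGAGTCA on either strand lay in 3 of the 8 (37.5%), *Srxn1*, *Prdx1* and *Osgin1*, against 5.95% of all genes. Of 27 other known Nrf2 targets with a window, 7 (25.9%) held the core and 5 (18.5%) the AP-1 motif. The windows of *Nqo1*, *Keap1* and *Osgin1* held no core. In *Prdx1* an AP-1 match and the antioxidant core shared bases, between −133 and −125 from the start. Only TGACNNNGC was searched as the core, so variant spellings, such as TGAGTCAGC in the *Srxn1* window, were not counted as one. The genes were chosen as known targets of Nrf2, and a match is a description of the letters, not a measured site. Shown are the windows of *Nfe2l2* itself (chr2:75704614-75704913, minus strand), of *Srxn1* (chr2:152105274-152105573, plus strand), the member with a core after its start, and of *Prdx1* (chr4:116685349-116685648, plus strand), where both motifs overlap. They run 5′ to 3′ on the gene's strand, with the antioxidant core in capitals.
Nfe2l2: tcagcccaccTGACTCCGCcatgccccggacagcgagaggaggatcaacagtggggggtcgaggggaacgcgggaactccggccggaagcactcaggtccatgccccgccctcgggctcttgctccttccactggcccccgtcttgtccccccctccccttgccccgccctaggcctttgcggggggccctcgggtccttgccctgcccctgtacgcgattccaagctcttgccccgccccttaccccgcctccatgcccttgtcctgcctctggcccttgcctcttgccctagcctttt
Srxn1: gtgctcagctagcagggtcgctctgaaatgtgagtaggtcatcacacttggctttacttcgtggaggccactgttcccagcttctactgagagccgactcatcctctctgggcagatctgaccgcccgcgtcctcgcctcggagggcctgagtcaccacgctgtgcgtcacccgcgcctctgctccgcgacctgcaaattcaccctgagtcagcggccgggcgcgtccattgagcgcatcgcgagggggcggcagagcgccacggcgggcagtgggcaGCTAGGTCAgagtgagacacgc
Prdx1: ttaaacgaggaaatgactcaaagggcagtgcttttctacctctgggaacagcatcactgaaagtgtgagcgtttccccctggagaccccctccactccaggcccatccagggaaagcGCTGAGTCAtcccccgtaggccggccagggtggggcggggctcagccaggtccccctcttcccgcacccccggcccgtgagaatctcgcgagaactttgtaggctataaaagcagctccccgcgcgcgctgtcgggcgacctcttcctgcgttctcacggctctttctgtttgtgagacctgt

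With rGDF11 the genes of this group were lower or did not pass the test. Expression is given as log2 values of the robust multichip average (RMA), and "rose" and "fell" are used where the adjusted p of a gene from limma was under 0.05 over 23410 probe sets. By this rule 6 of 10 fell, *Nqo1*, *Srxn1*, *Keap1*, *Nfe2l2*, *Prdx1* and *Hmox1*, and 4 did not pass. The background was 8.64% of all probe sets lower (7.31% higher, 16% in either direction), 9.13% of all genes lower, and 16.2% of the genes with a mean above the median, as all 10 had. The 10 genes and the lists below were chosen with earlier results of these data known, so their shares beside the background are description only. None of the 10 rose (0 also at an unadjusted p under 0.05 and by the methods' t-test), where 7.49% of all genes, and 12.5% of the brighter ones, were higher. Their median log2 fold change was −0.26, beside 0.03 over all genes. In 7 of the 10 every array with rGDF11 read below every array without it, as in 16.5% of the probe sets tested, and in 0 every array read above, as in 16.4%. At the 1.5-fold change and unadjusted p under 0.01 of the methods, 2 genes were lower, *Nqo1* and *Srxn1*, and 0 higher, against 2.96% and 2.06% of probe sets. In a bulk culture fewer cells of a type and less RNA per cell cannot be told apart.

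**Figure D1:**
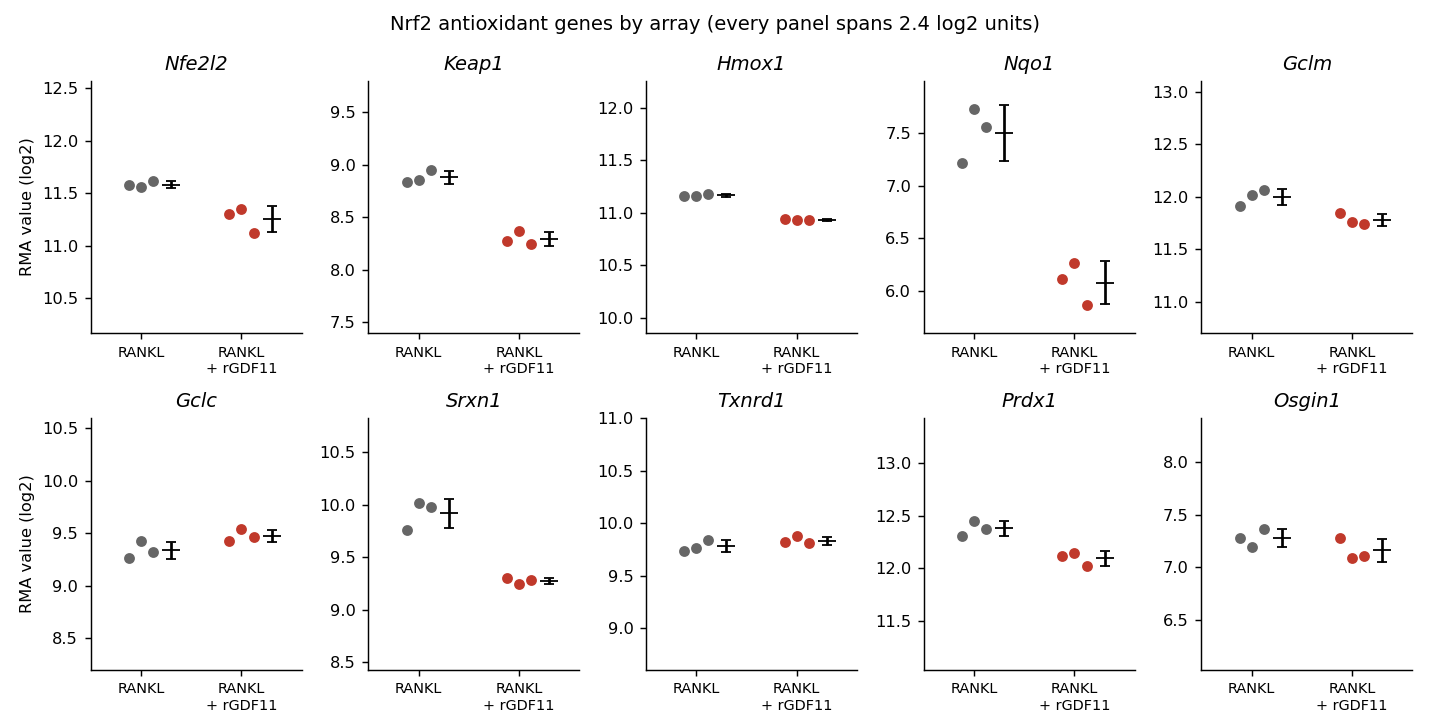
RMA expression values (log2, vertical axes, each spanning the same range) of the 10 genes in BMMs with RANKL alone (grey) and with rGDF11 added (red). Each point is 1 array, with group means and SDs (n = 3) drawn as bars; *Nqo1* moves furthest, from 7.50 to 6.08, and *Gclc*, *Txnrd1* and *Osgin1* overlap between the groups.

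The pair of genes at the head of the pathway both fell. *Keap1* (probe set 10591482) read 8.84, 8.85 and 8.95 with RANKL and 8.27, 8.37 and 8.24 with rGDF11. The groups lay clearly apart, and the difference was −0.58 on the log2 scale with a standard error of 0.07 (limma, adjusted p = 0.000889), or 1.499-fold lower. That is just short of the 1.5-fold that the methods set. *Nfe2l2* (probe set 10483809) read 11.57, 11.55 and 11.62 with RANKL and 11.30, 11.35 and 11.12 with rGDF11. rGDF11 replicate 3 was the lowest, the groups did not overlap, and the fall was 1.25-fold (log2 fold change −0.33, standard error 0.08; limma, adjusted p = 0.0238). This call did not hold without RANKL replicate 1, 2 or 3 or without rGDF11 replicate 1 or 3, where the adjusted p was 0.0565 to 0.0865.

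*Nqo1*, the quinone reductase that serves as a standard readout of Nrf2, showed the largest difference of the 10. Its values (probe set 10581538) were 7.21, 7.73 and 7.56 with RANKL and 6.11, 6.26 and 5.86 with rGDF11. It also varied most between replicates (SD 0.27 and 0.20), yet the lowest RANKL array stood well above the highest rGDF11 array. It was 2.68-fold lower (log2 fold change −1.42, standard error 0.15; limma, adjusted p = 0.000561), and −1.57 to −1.31 with each array left out in turn. Among 9917 other genes brighter than the median, those whose log2 values over the 6 arrays were most like those of *Nqo1* were *G6pd2*, *Tifa*, *Etfdh*, *Flot2* and *Armcx3* (Pearson r 0.998 to 0.999), with log2 fold changes of −0.61, −0.41, −0.24, −0.33 and −0.73. The arrays form 2 groups, and such a likeness includes the step between them. *G6pd2* is a retrocopy of *G6pdx*, the glucose-6-phosphate dehydrogenase that opens the pentose phosphate pathway, and probes may not tell the copies apart.

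*Srxn1* and *Prdx1*, genes of the peroxiredoxin cycle, fell. Peroxiredoxins destroy hydrogen peroxide, and sulfiredoxin, encoded by *Srxn1*, restores those that have been overoxidised. *Srxn1* (probe set 10477061) read 9.76, 10.01 and 9.98 with RANKL and 9.30, 9.24 and 9.29 with rGDF11. The rGDF11 arrays were tightly grouped below all RANKL arrays, a 1.56-fold fall (log2 fold change −0.64, standard error 0.08; limma, adjusted p = 0.00144). *Prdx1* (probe set 10436048) read 12.31, 12.45 and 12.37 with RANKL and 12.12, 12.14 and 12.02 with rGDF11, a 1.22-fold fall without overlap (log2 fold change −0.29, standard error 0.07; limma, adjusted p = 0.0272). Without RANKL replicate 2 or 3 or rGDF11 replicate 1 or 3 its adjusted p was 0.0733 to 0.0917. A second probe set paired with *Prdx1* alone (10507328), read after the values were known, fell from 11.72 ± 0.10 to 11.24 ± 0.08 (mean ± SD, n = 3 each; log2 fold change −0.47; limma, adjusted p = 0.00505). The annotation gives both probe sets the same accessions, and no source used here says which transcript or gene copy each reads. *Txnrd1*, the reductase that keeps thioredoxin active, did not pass. It read 9.73, 9.77 and 9.84 with RANKL and 9.82, 9.88 and 9.81 with rGDF11, so the groups overlapped. The difference was 0.06 (95% confidence interval −0.09 to 0.20; limma, adjusted p = 0.645).

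Heme oxygenase changed little but evenly. *Hmox1*, which opens heme to biliverdin, iron and carbon monoxide, read 11.15, 11.16 and 11.18 with RANKL and 10.94, 10.93 and 10.93 with rGDF11 (probe set 10572897). The replicates of each group were nearly equal (SD 0.01 in both) and the groups did not overlap. The fall was 1.18-fold, with a log2 fold change of −0.23 and a standard error of 0.06 (limma, adjusted p = 0.0269). It did not pass without any 1 of the 6 arrays, each left out in turn (RANKL replicates 1 to 3 and rGDF11 replicates 1 to 3; adjusted p = 0.0638 to 0.0863, log2 fold change −0.24 to −0.23). limma draws a small spread towards that of all probe sets, so the standard error is wider than the replicates of this gene alone would give.

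The subunits of glutamate-cysteine ligase, which makes the first bond of glutathione, did not pass. The modifier subunit *Gclm* read 11.92, 12.02 and 12.07 with RANKL and 11.85, 11.76 and 11.74 with rGDF11. Its groups did not overlap, and its log2 fold change was −0.22 (95% confidence interval −0.38 to −0.06; limma, adjusted p = 0.0732). It passed when only probe sets brighter than the median were tested (adjusted p = 0.0196) and when the spread was allowed to depend on brightness (adjusted p = 0.00221). The catalytic subunit *Gclc* read 9.26, 9.43 and 9.33 with RANKL and 9.43, 9.54 and 9.47 with rGDF11. The highest RANKL array lay at the level of the lowest rGDF11 array, and the log2 fold change was 0.14 (95% confidence interval −0.02 to 0.30; limma, adjusted p = 0.255). *Osgin1*, a growth inhibitor induced by oxidative stress, read 7.28, 7.19 and 7.36 with RANKL and 7.28, 7.09 and 7.11 with rGDF11. The groups overlapped, with a log2 fold change of −0.12 (95% confidence interval −0.30 to 0.07; limma, adjusted p = 0.408). For the 6 genes that fell, and for *Gclm*, the exact permutation test over the arrays was two-sided and gave p = 0.1, and no split of 3 against 3 can give a smaller one.

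**Figure D2:**
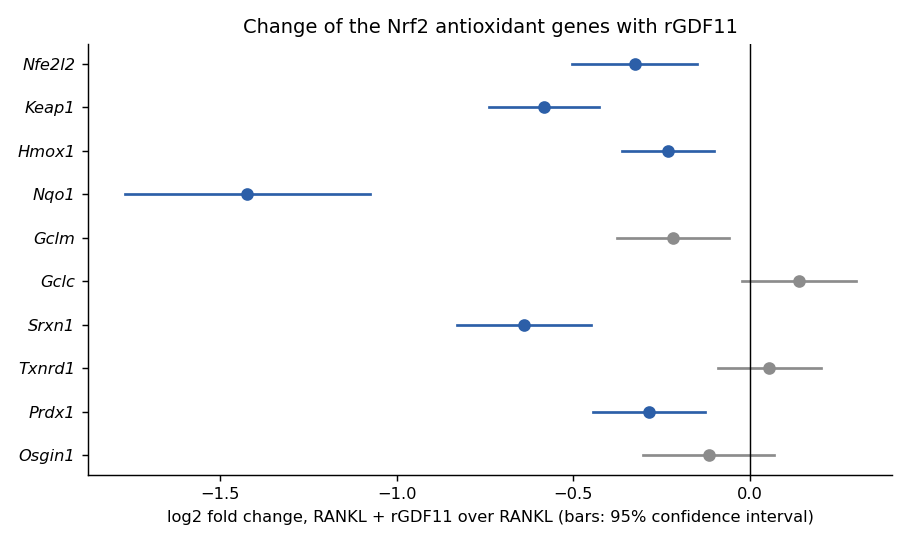
Horizontal axis, log2 fold change with rGDF11 relative to RANKL alone, of the 10 genes with 95% confidence intervals from limma, 3 arrays per group. Blue genes fell at an adjusted p under 0.05 and grey genes did not pass; *Nqo1* lies furthest to the left at −1.42, and the intervals of *Gclc*, *Txnrd1* and *Osgin1* cross 0.

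Among other known Nrf2 targets falls outnumbered rises. Of 31 listed, 30 were measured by an own probe set, and 15 of these fell, 1 rose and 14 did not pass (50.0% lower, against 9.13% of all genes and 16.2% of the brighter ones). Their median log2 fold change was −0.31. *Gsr*, *Txn1* and *Sqstm1* are counted again in the lists below. *Ephx1*, the microsomal epoxide hydrolase, was 2.50-fold lower, *Idh1*, which makes NADPH from isocitrate, 2.45-fold lower and *Akr1b8*, an aldo-keto reductase, 2.33-fold lower (limma, highest adjusted p of the 3 = 0.000575). The further ones that fell included the reductases *Ptgr1* (log2 fold change −0.92), *Cbr3* (−0.97) and *Cbr1* (−0.56), the iron-binding protein *Pir* (−1.17), the conjugating enzymes *Mgst1* (−0.80) and *Gstm1* (−0.70), and malic enzyme *Me1* (−0.48), another source of NADPH. The pentose phosphate enzymes *Pgd* (−0.16, limma, adjusted p = 0.138), *Taldo1* (−0.13, adjusted p = 0.251) and *Tkt* (−0.10, adjusted p = 0.399) did not pass. Nor did *Fth1*, the ferritin heavy chain (−0.09, limma, adjusted p = 0.370), or thioredoxin *Txn1* (−0.03, adjusted p = 0.779).

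**Figure D3:**
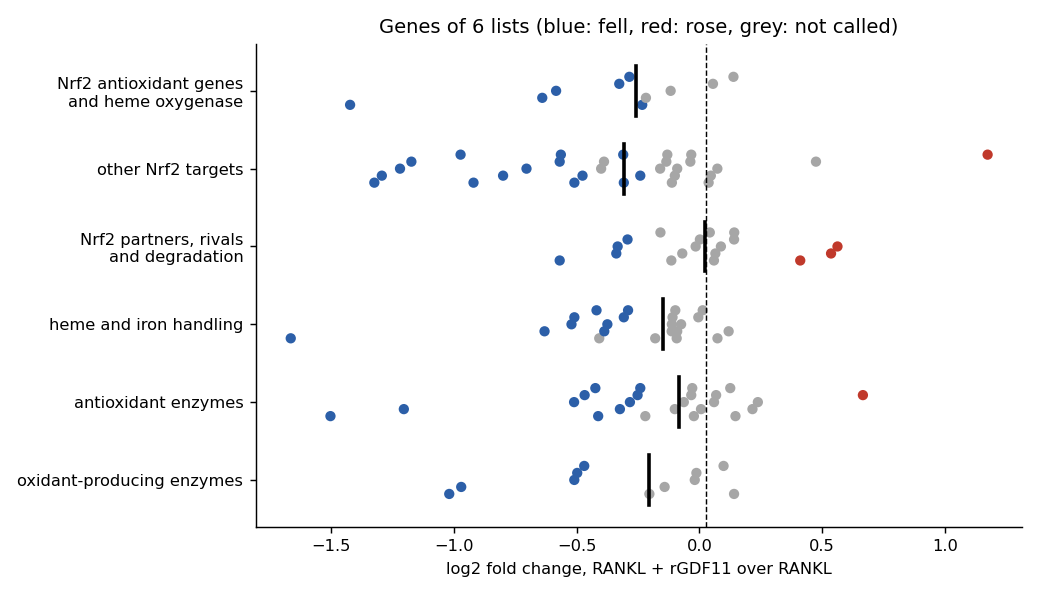
Horizontal axis, log2 fold change with rGDF11 relative to RANKL alone, of each measured gene in 6 lists, from 3 arrays per group. Black bars are list medians and the dashed line is the median of all genes, 0.03; blue genes fell and red genes rose at an adjusted p under 0.05, and among the other Nrf2 targets 15 lie to the left in blue and *Slc7a11* to the right in red.

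The 1 target that rose was *Slc7a11*, the cystine transporter that feeds glutathione synthesis. It read 7.63, 7.72 and 7.93 with RANKL and 8.88, 9.05 and 8.87 with rGDF11. Every rGDF11 array stood above every RANKL array, a 2.26-fold rise (log2 fold change 1.17, standard error 0.09; limma, adjusted p = 0.000143). Along the glutathione route the genes thus differed in direction. After *Slc7a11* came *Gclc* and *Gclm*, which did not pass, then glutathione synthetase *Gss*, which fell by 0.32 on the log2 scale (limma, adjusted p = 0.0336), glutathione reductase *Gsr*, which fell by 0.24 (adjusted p = 0.0472), and glutathione peroxidase *Gpx1*, which fell by 0.25 (adjusted p = 0.024).

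**Figure D4:**
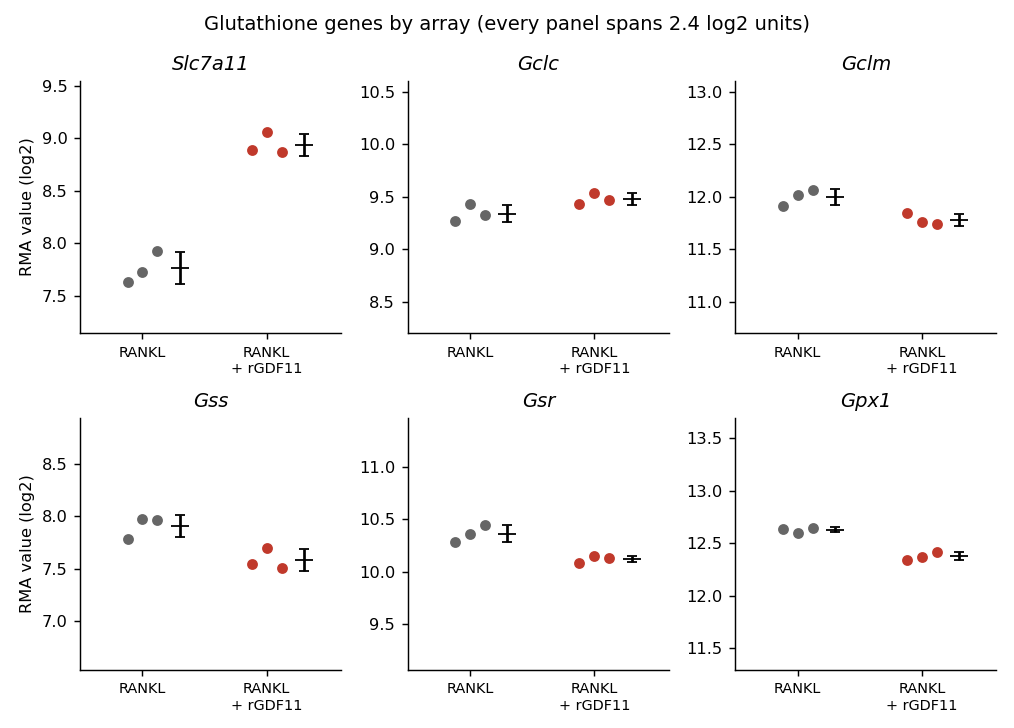
RMA expression values (log2, vertical axes, each spanning the same range) of 6 genes of cystine import and glutathione synthesis and use, with RANKL alone (grey) and with rGDF11 added (red). Each point is 1 array, with group means and SDs (n = 3) drawn as bars; *Slc7a11* rises from 7.76 to 8.94, while *Gss*, *Gsr* and *Gpx1* step down.

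Of 18 measured genes that act on Nrf2, 4 fell, 3 rose and 11 did not pass, with a median log2 fold change of 0.02. Their shares, 22.2% lower and 16.7% higher, were near those of genes brighter than the median (16.2% and 12.5%), so the counts alone do not set this list apart. *Sqstm1*, whose product p62 binds Keap1 and releases Nrf2, fell 1.48-fold, from 12.28 ± 0.06 to 11.71 ± 0.04 (mean ± SD, n = 3 each; limma, adjusted p = 0.000796). *Dpp3*, another Keap1 binder, fell by 0.34 on the log2 scale, *Bach1*, the repressor that competes with Nrf2 at *Hmox1*, fell by 0.33 and *Nfe2l1*, a relative of Nrf2, fell by 0.29 (limma, highest adjusted p of the 3 = 0.0331). The small Maf gene *Maff* rose by 0.56 (limma, adjusted p = 0.0124) and *Bach2* by 0.41 (adjusted p = 0.0153), both from dim probe sets with means of 4.90 and 5.91. *Crebbp*, a coactivator, rose by 0.54 (adjusted p = 0.000802). The other small Maf genes *Mafg* (0.04, limma, adjusted p = 0.705) and *Mafk* (−0.16, adjusted p = 0.166) did not pass. *Cul3* (0.14, limma, adjusted p = 0.212) and *Rbx1* (−0.11, adjusted p = 0.244), parts of the ligase that Keap1 serves, did not pass either.

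Of 23 heme and iron genes listed around *Hmox1*, 22 were measured, and 9 fell, 0 rose and 13 did not pass (limma; 0 were higher also at an unadjusted p under 0.05 and by the methods' t-test). That is 40.9% lower, beside 9.13% of all genes and 16.2% of the brighter ones, with a median log2 fold change of −0.15. The list shares *Blvrb*, *Slc48a1*, *Fth1* and *Ftl1* with the Nrf2 targets. *Slc40a1*, ferroportin, the exporter of iron, changed most. It read 7.78, 8.04 and 7.83 with RANKL and 6.43, 6.19 and 6.04 with rGDF11, a 3.17-fold fall with no overlap (log2 fold change −1.67, standard error 0.11; limma, adjusted p = 7.18e-05). *Ncoa4*, the receptor that brings ferritin to the lysosome, fell 1.55-fold (limma, adjusted p = 0.000353) and *Hfe* 1.44-fold (adjusted p = 0.0061). *Slc48a1*, which carries heme out of the lysosome, fell by 0.31 on the log2 scale, the constitutive oxygenase *Hmox2* by 0.29, and the biliverdin reductases *Blvra* and *Blvrb* by 0.42 and 0.51 (limma, highest adjusted p of the 4 = 0.036). The ferritin chains *Fth1* and *Ftl1* (−0.11, limma, adjusted p = 0.300) and the transferrin receptor *Tfrc* (−0.11, adjusted p = 0.430) did not pass.

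**Figure D5:**
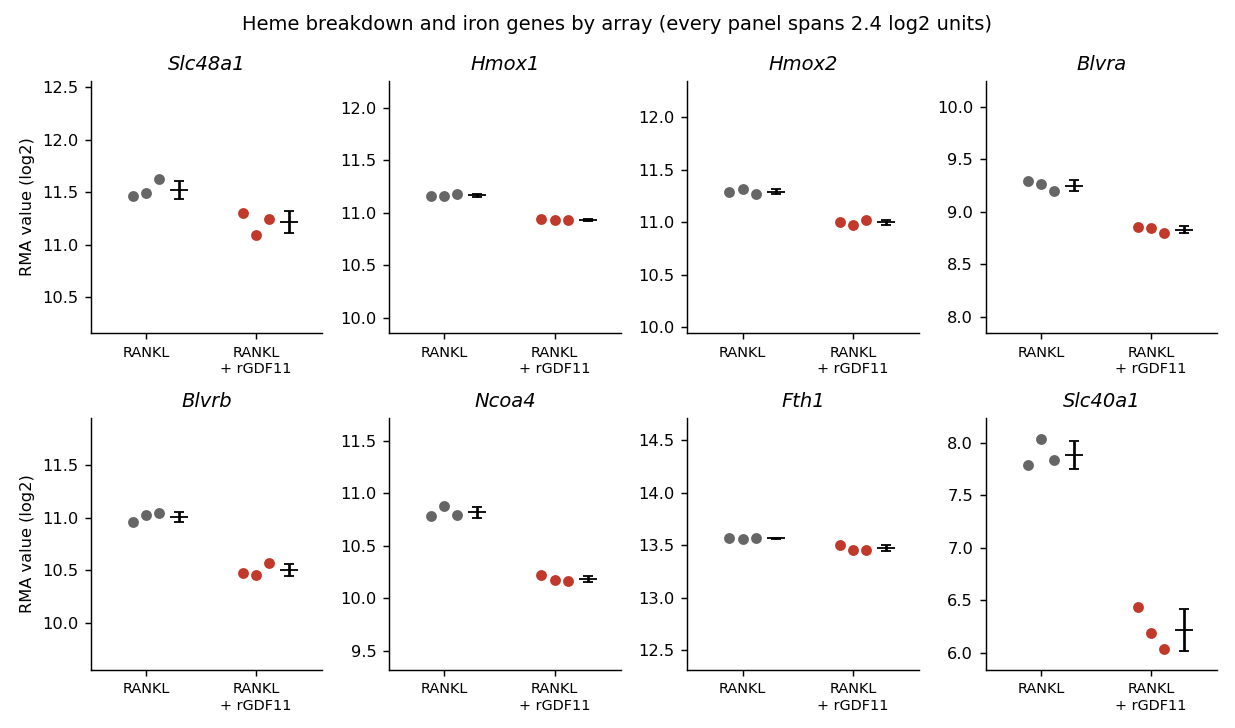
RMA expression values (log2, vertical axes, each spanning the same range) of 8 genes of heme transport, heme breakdown and iron storage or export, with RANKL alone (grey) and with rGDF11 added (red). Each point is 1 array, with group means and SDs (n = 3) drawn as bars; *Slc40a1* steps down from 7.88 to 6.22, and *Fth1* reads 13.57 and 13.48.

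Among antioxidant enzymes outside the group, 24 of 26 listed were measured, and 10 fell, 1 rose and 13 did not pass. That is 41.7% lower and 4.17% higher, beside 9.13% and 7.49% of all genes and 16.2% and 12.5% of the brighter ones, with a median log2 fold change of −0.08. *Txnip*, the inhibitor of thioredoxin, fell 2.84-fold, and the stress-induced *Sesn1* and *Sesn2* fell 2.30-fold and 1.42-fold (limma, highest adjusted p of the 3 = 0.00145). *Txnip* is counted here for its part in the thioredoxin system, although its product opposes it. Catalase, *Cat*, fell by 0.47 on the log2 scale (limma, adjusted p = 0.00346), *Prdx4* by 0.42 (adjusted p = 0.0203) and *Gpx4*, which reduces lipid peroxides, by 0.28 (adjusted p = 0.0298). *Gpx8* rose 1.59-fold from a dim level of 5.92 (limma, adjusted p = 0.00346). The superoxide dismutases *Sod1* (0.22, limma, adjusted p = 0.0857) and *Sod2* (0.07, adjusted p = 0.562) and *Prdx2* (−0.22, adjusted p = 0.0979) did not pass. At an unadjusted p under 0.05 (limma) 11 genes of the list were lower and 3 higher. Those higher were *Gpx8*, *Sod1* and *Gpx3* (0.24, limma, adjusted p = 0.0925). The count of 10 was 4 without RANKL replicate 2, 6 without RANKL replicate 3, 5 without rGDF11 replicate 1, 6 without rGDF11 replicate 3 and 5 by the methods' t-test, and without RANKL replicate 3 there were 2 higher.

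Several enzymes that produce oxidants fell. Of 12 listed, 11 were measured, and 5 fell, 0 rose and 6 did not pass (limma; 0 were higher also at an unadjusted p under 0.05 and by the methods' t-test). That is 45.5% lower, beside 9.13% of all genes and 16.2% of the brighter ones, with a median log2 fold change of −0.20. *Nox1*, a catalytic subunit of NADPH oxidase, fell 2.03-fold and *Xdh*, xanthine dehydrogenase, 1.96-fold (limma, highest adjusted p of both = 0.000114). *Cybb*, the catalytic subunit of the phagocyte oxidase, fell from 12.09 ± 0.03 to 11.58 ± 0.07 (mean ± SD, n = 3 each; limma, adjusted p = 0.00134), and its partners *Ncf1* and *Rac2* fell by 0.47 and 0.50. *Cyba* (−0.20, limma, adjusted p = 0.0661) and *Rac1* (−0.01, adjusted p = 0.924) did not pass.

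The arrays carried the label of macrophages plainly. The 7 macrophage markers had means of 8.15 to 13.05 with RANKL, and 4 of them (57.1%) fell with rGDF11. These were *Fcgr1* (log2 fold change −1.41), *Adgre1* (−0.51), *Cd68* (−0.28) and *Itgam* (−0.24; limma, highest adjusted p of the 4 = 0.0331). *Csf1r*, *Lyz2* and *Mertk* did not pass. Summed linear values of the 7 were 26615 to 26934 with RANKL against 22377 to 23543 with rGDF11. Of 6 osteoclast precursor markers 5 rose (83.3%), *Acp5* and *Nfatc1* among them (2362 to 2641 against 4836 to 5221). Over all genes 9.13% were lower and 7.49% higher, and over the brighter ones 16.2% and 12.5%. In the lists that follow a single gene makes up 14.3% to 33.3%, so single calls there cannot be set against these shares. Of 4 measured osteoblast or stromal markers 3 rose (75%), with summed linear values of 347 to 377 with RANKL and 503 to 587 with rGDF11. Of 7 measured neutrophil markers 1 rose (501 to 523 against 587 to 645), of 4 erythroid ones 1 (140 to 149 against 140 to 173) and of 5 dendritic ones 1 (163 to 173 against 185 to 222). Of 4 endothelial markers 1 rose and 1 fell (186 to 188 against 173 to 178), of 4 B cell ones 1 fell (234 to 264 against 131 to 154), of 3 megakaryocyte ones 1 fell (813 to 916 against 421 to 503) and of 4 T cell ones 0 passed (limma; 0 also at an unadjusted p under 0.05; 112 to 146 against 129 to 144). All of the measured osteoblast, neutrophil, erythroid, dendritic, endothelial and T cell markers had means of 6.99 or less with RANKL. The brightest B cell marker had a mean of 7.61, and the brightest megakaryocyte marker 9.49, above the lowest macrophage marker. The part of these markers in the changes above was not tested. Medians of the tested probe sets lay between 6.11 and 6.18 on every array, and arrays correlated at 0.997 to 0.998 within and 0.989 to 0.991 between the groups, across probe sets, which are not independent.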

How the data were processed

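The arrays measured total RNA of BMMs on Affymetrix Mouse Gene 1.0 ST arrays, 3 with RANKL and 3 with RANKL and rGDF11. The values the authors deposited are on the log2 scale and came from RMA, which corrects background, brings arrays to a common distribution and summarises probes. The software was Expression Console together with, in version 3.0, Transcriptome Analysis Console, which is also named in the submitters' processing notes. No source used here gives the annotation release or the hybridisation batches, the table holds no detection calls, and the number of arrays limits the precision.

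The annotation named a single gene for 21789 of the 35556 probe sets, more than 1 gene for 1621 and no gene for 12146. The test of the 23410 named ones used lmFit and eBayes of limma 3.58.1 (R 4.3.3, two-sided, Benjamini-Hochberg adjustment). The methods' own threshold was a 1.5-fold change with a P value under 0.01. Lists were described by counts and medians. Members and lists were chosen with earlier results of these data known. Genes named are the 10 members, per list up to 4 called genes with the largest change and up to 2 bright ones that did not pass, and the 5 most like *Nqo1*; further list members were named after their values were seen. The fit was tested on simulated data. Alternatives covered the rows tested, dim rows, normalization, the model of the spread and the replicate block. They also covered a t-test as in the methods but with Benjamini-Hochberg adjustment, arrays left out, thresholds and the probe set of a gene. Motifs were searched with Python 3.11.15.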

Additional observations from a re-analysis of the deposited data

How the results depend on the processing

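*Keap1*, *Nqo1* and *Srxn1* stayed lower at an adjusted p under 0.05 in all alternatives but the methods' threshold (1.5-fold and an unadjusted p under 0.01), which *Keap1* missed. No member changed direction in any alternative. The count of 6 members lower was 3 over all rows of the table with or without a symbol. At the methods' threshold it was 2, and by the methods' t-test 4. With each array left out it was 3 to 5, with 3 without RANKL replicate 2 or 3 or rGDF11 replicate 1 or 3. It was 7 among brighter probe sets and 7 with a trend in the spread. With that trend 19 other Nrf2 targets, against 15, and 12 heme and iron genes, against 9, were lower. The methods' threshold gave 8 other Nrf2 targets, 2 heme and iron genes, 2 antioxidant enzymes, 2 oxidant-producing enzymes and 0 regulators of Nrf2 lower, and 0 regulators higher. It gave 483 probe sets higher and 694 lower, against 1712 and 2023. Antioxidant enzymes lower numbered 6 over all rows, 5 by the methods' t-test and 4 to 7 with each array left out; those higher numbered 3 among brighter probe sets, 2 after quantile normalization, 2 with a trend in the spread and 1 to 2 with each array left out. Regulators higher numbered 1 among brighter probe sets and 1 by the methods' t-test. The test of brighter probe sets left dim ones out, that of *Maff* among them (means 4.90 with RANKL and 5.46 with rGDF11). With each array left out, probe sets higher numbered 1129 (without rGDF11 replicate 1) to 1357.

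Deviations from the group means correlated between arrays of the same number at 0.33 for replicate 2, but at 0.06 and −0.00083 for replicates 1 and 3, and 3 of 6 samples correlated best with their own number, so the numbers were not taken as pairs. With the replicate block 5 members were lower, *Hmox1* no longer passing (adjusted p = 0.0538), 2 other Nrf2 targets were higher, and 1676 probe sets were higher and 1943 lower. The cause of these differences was not tested.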

Other observations

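Enzyme families next to the Nrf2 targets were chosen after the data were seen and taken by the start of their symbols. They are given with the share of all genes lower (9.13%) and higher (7.49%). The list of Nrf2 targets already held 6 of the glutathione S-transferase genes, 1 aldo-keto reductase gene and 0 aldehyde dehydrogenase genes. Of 22 glutathione S-transferase genes, 7 fell, 0 rose and 15 did not pass (limma, adjusted p under 0.05; 1 higher at an unadjusted p under 0.05 and 0 by the methods' t-test). The conjugating enzymes *Gstk1* (log2 fold change −0.85), *Gstm5* (−0.64), *Gstm3* (−0.60) and *Gstm4* (−0.49) fell beside *Gstm1*, *Mgst1* and *Mgst3* (−0.32), and as the *Gstm* genes are close copies, probes may not tell them apart. That is 31.8% lower, and 2 of the 7 that fell, *Gstm1* and *Mgst1*, were already counted among the Nrf2 targets. Of 15 aldo-keto reductase genes, 5 fell, 0 rose and 10 did not pass (limma; 1 higher at an unadjusted p under 0.05 and 0 by the methods' t-test), with *Akr1b10* (−0.48) and *Akr1e1* (−0.33) among those lower. That is 33.3% lower, and 1 of the 5, *Akr1b8*, was counted before. Of 21 aldehyde dehydrogenase genes, 7 fell, 2 rose and 12 did not pass (33.3% lower and 9.52% higher). *Aldh1l1*, the cytosolic enzyme of folate metabolism, changed most and was 2.47-fold lower, from 7.19 to 5.89 on the log2 scale (limma, adjusted p = 9.36e-05), whereas *Aldh1l2*, its mitochondrial counterpart, rose by 0.32 (adjusted p = 0.0475), as did *Aldh18a1*, which makes the precursor of proline (0.32, adjusted p = 0.0152).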
